A study of Mus musculus with 34 samples.

Results

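The genes described here were grouped under the interstitial matrix, the fibrous and gel-like material between cells of connective tissue. They were chosen by name from the genes on the array: the collagens except Col4a1 and Col4a2, the fibulins, fibrillins, thrombospondins, lysyl oxidases and microfibril proteins, and 11 further genes (Lum, Dcn, Bgn, Postn, Sparc, Fn1, Eln, Tnc, Vcan, Fmod and Ogn). The choice used names and no measured value. It gave 50 members among 8251 genes, each read from its brightest probe set. By the role of the product they fall into 8 fibrillar collagens, 7 collagens associated with fibrils, 14 network-forming, beaded and other collagens, 9 genes of elastic fibres and crosslinking, 6 adhesive or matricellular glycoproteins and 6 proteoglycans. The rule of names also took in collagens of other sites. Among these are the type IV chains Col4a3, Col4a4 and Col4a5, Col18a1 of basement membrane zones and the transmembrane collagen Col13a1.

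Fibrillar collagens assemble outside the cell into fibrils that bear tension, and lysyl oxidases crosslink collagen and elastin. Small leucine-rich proteoglycans such as decorin and lumican coat the fibrils and regulate their growth, while versican holds water in loose matrix. Mesenchymal cells and fibroblasts are known as the main producers of this matrix, whereas epithelial and early embryonic cells mostly lay down basement membrane, a sheet of laminin and type IV collagen.

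RNA of pluripotent and somatic mouse cells was profiled on Affymetrix arrays. The pluripotent groups were male embryonic germ cell lines made from E12.5 germ cells (EGC, passage 19, 3 arrays), male embryonic stem cells (ESC, passage 9 to 14, 2 arrays), both kept in LIF with serum, and inner cell mass freed from E3.5 blastocysts by immunosurgery (ICM, mixed sex, 3 arrays). The others were primordial germ cells (PGC) sorted as positive for an Oct4/GFP reporter, namely females at E13.5 (3 arrays), males at E13.5 (3 arrays) and mixed sexes at E11.5 (4 arrays). The somatic groups were neural stem or precursor cells of the subventricular zone of 8-week mice, grown with EGF as neurospheres to passage 1 (NSC, mixed sex, 2 arrays), and bone marrow haematopoietic stem or precursor cells of 8-week males, sorted as Sca-1+, c-Kit+, CD34-, Lin- and Side Population (HSC, 2 arrays). They also held embryonic fibroblasts of E13.5 at passage 2 in serum (MEF, mixed sex, 6 arrays) and Oct4/GFP-negative soma sorted from gonad with mesonephros at E11.5 (SGM, mixed sex, 4 arrays). The strain was C57Bl/6 throughout, apart from ICM, where the embryos came from crosses of C57Bl/6 with C3H, and in replicate 1 with CD1 as well. The labels call the replicates biological and do not say whether the ESC and EGC arrays came from 1 line or several.

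Of the 50 members, 32 had an entry among RefSeq promoters of GRCm38.p6, each covering 250 bases before and 50 after the gene's start. The windows of 4 members are printed because the results below turn on these genes: Col1a2 and Col3a1 were high in both MEF and SGM, and Col8a1 and Fbln2 were far higher in MEF than in SGM. Capitals mark the TATA motif TATAAA, the CCAAT box, the GC box GGGCGG and the AP-1 motif TGANTCA on either strand, and no marked stretch overlaps another. Col1a2 lies at chr6:4505368-4505667 on the plus strand, Col3a1 at chr1:45311288-45311587 on the plus strand, Col8a1 at chr16:57754688-57754987 on the minus strand and Fbln2 at chr6:91212514-91212813 on the plus strand.
Col1a2: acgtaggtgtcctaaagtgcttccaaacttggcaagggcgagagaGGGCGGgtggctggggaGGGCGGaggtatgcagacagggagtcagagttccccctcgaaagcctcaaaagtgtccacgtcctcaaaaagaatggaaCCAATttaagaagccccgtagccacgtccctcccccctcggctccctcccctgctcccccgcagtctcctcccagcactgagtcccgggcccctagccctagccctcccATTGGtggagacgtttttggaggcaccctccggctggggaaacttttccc
Col3a1: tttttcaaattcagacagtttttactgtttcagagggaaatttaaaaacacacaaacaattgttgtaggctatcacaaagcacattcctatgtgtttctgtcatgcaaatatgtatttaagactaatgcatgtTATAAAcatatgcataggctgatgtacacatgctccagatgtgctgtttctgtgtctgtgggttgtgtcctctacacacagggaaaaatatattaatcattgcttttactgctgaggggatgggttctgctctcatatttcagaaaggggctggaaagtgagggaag
Col8a1: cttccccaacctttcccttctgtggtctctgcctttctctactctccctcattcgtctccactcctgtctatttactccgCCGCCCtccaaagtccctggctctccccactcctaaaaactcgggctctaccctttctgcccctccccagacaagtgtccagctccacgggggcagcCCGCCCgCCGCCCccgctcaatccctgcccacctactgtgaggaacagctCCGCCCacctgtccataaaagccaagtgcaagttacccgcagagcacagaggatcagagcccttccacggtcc
Fbln2: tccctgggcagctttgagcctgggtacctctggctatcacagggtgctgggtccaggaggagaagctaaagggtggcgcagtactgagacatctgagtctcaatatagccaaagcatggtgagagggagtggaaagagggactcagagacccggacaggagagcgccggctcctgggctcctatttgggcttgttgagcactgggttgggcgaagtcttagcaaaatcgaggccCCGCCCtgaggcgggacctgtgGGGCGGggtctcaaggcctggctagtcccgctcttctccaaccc
The Col1a2 window holds GGGCGG at bases -205 and -188 and CCAAT at -109 and, on the other strand, at 1, counted from the start. The Col3a1 window holds TATAAA at -117 only, the Col8a1 window 4 copies of GGGCGG on the other strand, and the Fbln2 window 2 copies of GGGCGG. Of the 32 members with an entry, 9 held the TATA motif in any of their windows, 13 the CCAAT box, 17 the GC box and 1 the AP-1 motif. Among all 32544 promoters of this length the TATA motif was in 13.6%, the CCAAT box in 37.4%, the GC box in 35.9% and the AP-1 motif in 7.79%. Members were counted as genes and all promoters as single windows, so a member with several windows had more chances of a match. These matches describe the letters of the windows and show no binding.

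Values are log2 units of signal, and a difference is a log2 difference with its standard error (SE) from limma. A member was called at an adjusted p under 0.05 over all 8251 genes, two-sided. All 13 genes of a pluripotency and germ cell list were higher in the pluripotent groups on average, and the mean of 9 neural stem genes was 9.10 to 9.21 on NSC arrays against 6.31 to 7.32 elsewhere. The mean of 11 blood stem genes was 7.95 to 8.11 on HSC arrays against 5.91 to 6.52 elsewhere. NSC and HSC arrays stood apart in control probe sets: the 3' actin control averaged 5.43 and 5.63 in these groups against 10.22 to 12.95 in the other 8, and the B2 control 8.00 and 7.39 against 13.55 to 13.98. A DapX spike control averaged 13.79 and 13.64 there against 4.20 to 4.39. Differences of NSC or HSC from the other groups therefore cannot be told apart from this difference between arrays. On MEF arrays 13 probe sets exceeded 16, the top of a 16-bit log2 scale, and the highest value was 17.71. Of these probe sets 4 represent members (Fbln2, Col1a2, Col5a2 and Bgn), so their MEF levels are uncertain. Why values exceed this scale was not tested.

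Across the 10 groups the matrix genes differed widely in how far their group means spanned, from 0.36 for Col4a3 to 10.27 for Col5a2. In 18 of 50 members (36%) the 10 group means spanned less than 1 log2 unit, beside 39.3% of all 8251 genes, so their share is near the background. The flat members were 6 of the 7 fibril-associated collagens, 7 of the 14 network and other collagens (Col4a3, Col4a4, Col4a5, Col7a1, Col10a1, Col15a1 and Col17a1), the cartilage collagens Col2a1 and Col11a2, the microfibril genes Mfap4 and Mfap5 and the proteoglycan Fmod. The table holds no detection calls, so a flat gene may be at background in every group. MEF had the highest mean of 26 members (52%), beside 1113 of all 8251 genes, and SGM that of 9 (18%), beside 7.16%. The peak in MEF was shared by 6 of 8 fibrillar collagens, 5 of 6 adhesive glycoproteins and 5 of 6 proteoglycans. The 9 members highest in SGM were Col14a1, Col4a5, Col13a1, Col18a1, Col26a1, Fbn2, Fbln1, Mfap2 and Mfap4. Some peaks were narrow, as with Fbn2 (6.62 in SGM, 6.61 in MEF) and, among those in MEF, Col1a1 (11.78, against 11.77 in SGM). Among the 6 pluripotent groups the members varied little: their means spanned less than 1 in 43 of 50 (86%), beside 69.5% of all genes. The members' median range there was 0.55, against 0.68 over all genes.

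**Figure D1:**
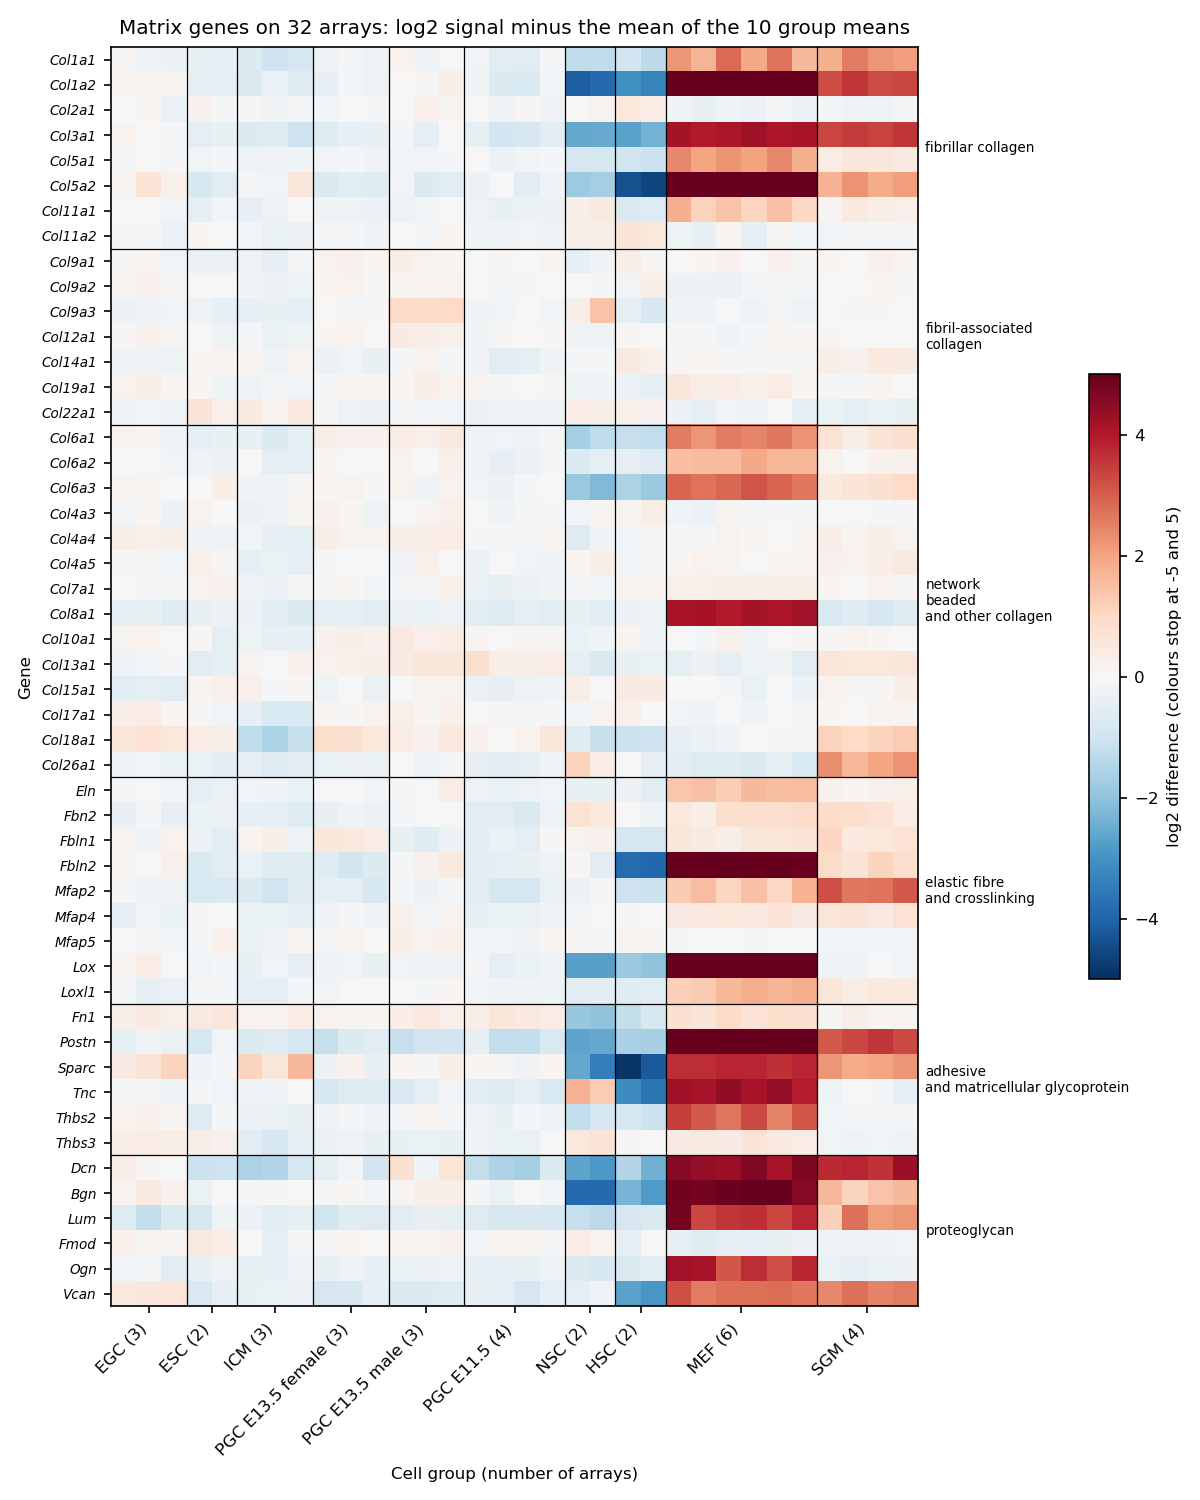
Each row is a matrix gene and each column an array, grouped by cell type, and colour gives the log2 signal minus the mean of the gene's 10 group means. MEF has the highest mean of 26 genes, darkest in rows such as Col1a2, Col5a2, Fbln2, Lox and Postn. The group means of 18 genes span less than 1, Col7a1 and Col19a1 among them although highest in MEF, and blue marks NSC and HSC in genes such as Col1a2, Lox and Sparc.

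Germ cells at E11.5 were set against the somatic cells of the same gonad and mesonephros, which asks how far matrix RNA separates the germ line from its surroundings. Of the 50 members 30 were lower and 1 was higher in germ cells, where 50.2% of all genes were called, 26.9% lower and 23.2% higher. All 31 were called with no overlap between the groups' arrays, beside 43.0% of all genes. The list's median difference was -0.44 against -0.04 over all genes. Fewer cells of a type and less RNA per cell cannot be told apart in such bulk samples.

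Dcn, Postn, Col3a1, Col1a2 and Mfap2 had the largest falls, each on its brightest probe set. Dcn, the proteoglycan decorin, read 6.85, 6.54, 6.42 and 7.35 in PGC E11.5, against 11.81, 11.89, 11.71 and 12.36 in SGM. That is a difference of -5.15 ± 0.23 (adjusted p = 1.12e-16), and the lowest SGM array lay far above the highest germ cell array. Col3a1, a collagen of extensible tissue, read 9.45, 8.96, 9.08 and 9.40 in PGC E11.5 and 13.26, 13.43, 13.30 and 13.48 in SGM (-4.15 ± 0.11, adjusted p = 3.33e-21). Col1a2, which encodes the α2 chain of type I collagen, read 10.59, 10.08, 10.02 and 10.63 in PGC E11.5 and 14.02, 14.35, 14.03 and 14.10 in SGM (-3.79 ± 0.12). All germ cell arrays lay below all SGM arrays for both. As a mean over probe sets the falls of Col1a2 (-2.09), Col1a1 (-1.79) and the proteoglycan gene Bgn (-1.01) stayed called but were smaller. Col1a1, the α1 chain of the same collagen, fell by 2.49 ± 0.20, and Col5a2, which helps start fibrils, by 2.24 ± 0.15. Of the 8 fibrillar collagens 6 fell, Col5a1 (-0.64) and Col11a1 (-0.61) by less, while the cartilage collagens Col2a1 (0.08) and Col11a2 (-0.09) were not called.

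Among adhesive glycoproteins Postn, periostin of developing connective tissue, read 6.68, 5.94, 5.94 and 6.40 in PGC E11.5, against 10.23, 10.48, 10.74 and 10.48 in SGM (-4.24 ± 0.16, adjusted p = 2.15e-18). Sparc, a collagen-binding glycoprotein, fell by 2.04 ± 0.19, its means being 9.57 ± 0.13 in PGC E11.5 and 11.61 ± 0.17 in SGM (SD, n = 4 each). Fn1, fibronectin, was the 1 member that rose, and by little: 9.73, 9.98, 9.87 and 9.75 in PGC E11.5 against 9.48, 9.70, 9.49 and 9.50 in SGM (0.29 ± 0.09, adjusted p = 0.00786). Its arrays did not overlap, although the highest SGM array and the lowest germ cell array were 9.70 and 9.73. Tnc, tenascin C, fell by 0.42 ± 0.14, and the thrombospondins Thbs2 (-0.12) and Thbs3 (-0.06) were not called.

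Of the other proteoglycans Vcan, versican, fell by 3.11 ± 0.12 and Lum, lumican, by 2.81 ± 0.25. Bgn, biglycan, fell by 1.60 ± 0.12, while Fmod (0.19) and Ogn (-0.04) were not called. Among genes of elastic fibres 7 of 9 fell, led by Mfap2, a glycoprotein of microfibrils, which read 7.27, 6.96, 6.98 and 7.50 in PGC E11.5 and 11.08, 10.47, 10.57 and 10.94 in SGM (-3.59 ± 0.15). Fbln2 (-1.29), Fbn2 (-1.23), Mfap4 (-0.92), Loxl1 (-0.66), Eln (-0.44) and Fbln1 fell by smaller amounts, Mfap4 with 0.0457 on another probe set, and Lox, the lysyl oxidase, was not called (-0.15). Eln was not called as a mean over its probe sets (-0.21, adjusted p = 0.0648). Of the 14 network and other collagens 9 fell, and Col26a1, first found in testis and ovary, fell most (-2.46 ± 0.14). Col18a1, the source of endostatin, fell by 0.90 ± 0.13 on its brightest probe set, but its 4 other probe sets ran from -0.08 to 0.16 and none of these was called. Of the 7 fibril-associated collagens Col14a1 alone fell (-0.69 ± 0.09). The 19 members not called lay between -0.15 and 0.19.

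Genes of collagen processing and of other matrix lists were more often lower than higher. Of 15 measured genes of collagen processing 9 were lower and 1 higher in PGC E11.5, with Serpinh1, the collagen chaperone, at -2.38 ± 0.16 and Pcolce, which enhances procollagen cleavage, at -1.57 ± 0.10. Of 13 genes of glycosaminoglycan synthesis 8 were lower and 2 higher, and of 21 matrix receptors 10 were lower and 2 higher. Basement membrane genes followed, with 11 of 13 lower and Col4a1 at -3.78 ± 0.26, while Nid2, nidogen 2, was higher (1.74 ± 0.32). Markers of mesenchyme and fibroblasts moved with these lists: 13 of 20 were lower in germ cells and none was higher, also at an unadjusted p under 0.05, and their mean was 6.77 to 7.04 on PGC E11.5 arrays against 8.03 to 8.28 on SGM arrays. Of 12 endothelial genes 7 were lower, as were 6 of 12 gonad and mesonephros genes and 4 of 12 macrophage genes, beside 26.9% of all genes. The macrophage share is thus near the background. The difference of 3' and 5' actin probe sets, a measure of RNA quality, averaged 0.95 ± 0.14 in PGC E11.5 and 0.70 ± 0.08 in SGM (SD, n = 4 each). Its lowest PGC E11.5 array was 0.8096 and its highest SGM array 0.8052. The 18S control was 12.36 to 13.48 in PGC E11.5, against 14.22 to 15.10 in SGM, also without overlap. The part of these cell types and of RNA quality in the falls was not tested.

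The fibroblasts were compared with the same SGM arrays, so the germ cell and fibroblast differences share their controls and are shown side by side without a correlation. Of the 50 members 25 were higher and 9 lower in MEF, where 49.8% of all genes were called, 22.2% higher and 27.6% lower. The arrays of 30 of them did not overlap, beside 39.9% of all genes. With arrays centred on their medians the split was 28 higher and 5 lower. The median difference was 0.21, against -0.05 over all genes.

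In fibroblasts 8 members stood over 3 log2 units above SGM. In 4 of them (Lox, Col8a1, Ogn and Thbs2) the germ cells of E11.5 were not called different from SGM, and in the other 4 (Tnc, Fbln2, Col5a2 and Bgn) they were lower. Lox, which crosslinks collagen and elastin, had its lowest, median and highest MEF arrays at 13.69, 13.84 and 13.98, against 7.88, 7.94, 8.12 and 7.95 in SGM (5.87 ± 0.09, adjusted p = 7.60e-28). Col8a1, a network collagen of vessel walls and the cornea, ran from 11.03 to 11.27 with a median of 11.20 in MEF, and read 6.32, 6.46, 6.22 and 6.41 in SGM (4.83 ± 0.07). Tnc ran from 13.42 to 13.94 with a median of 13.70 in MEF, and read 9.29, 9.49, 9.43 and 9.10 in SGM (4.39 ± 0.12). For these 3 genes every MEF array lay more than 3 log2 units above every SGM array. Ogn, the proteoglycan osteoglycin, averaged 10.08 ± 0.45 in MEF (SD, n = 6) and 6.05 ± 0.06 in SGM (SD, n = 4; 4.03 ± 0.15). Thbs2, a matricellular inhibitor of vessel growth, averaged 9.29 ± 0.37 in MEF and 6.17 ± 0.03 in SGM (3.12 ± 0.14). The germ cell differences from SGM of Lox (-0.15), Col8a1 (0.16), Ogn (-0.04) and Thbs2 (-0.12) were not called, and that of Tnc was -0.42. The rise of Lox was 5.19 after quantile normalization and 3.70 as a mean over its probe sets, and that of Tnc was 3.72 after quantile normalization.

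Members already high in SGM differed in how far they rose. Col3a1 averaged 14.03 ± 0.09 in MEF and 13.37 ± 0.11 in SGM (0.66 ± 0.10), and Col1a2 16.09 ± 0.09 in MEF and 14.13 ± 0.15 in SGM (1.97 ± 0.11). Both lost their call and changed sign after quantile normalization (Col3a1 -0.18, Col1a2 -0.13). Fbln2 (4.27 ± 0.11), Col5a2 (3.80 ± 0.14) and Bgn (3.40 ± 0.11) exceeded 16 on all 6 MEF arrays, and after quantile normalization their differences were 2.41, 1.74 and 1.32. Col1a1 was not called on its brightest probe set, with 11.78 ± 0.52 in MEF and 11.77 ± 0.32 in SGM, yet its second probe set gave 2.46 ± 0.13 (adjusted p = 1.26e-15 over all probe sets). The 2 probe sets of this gene thus disagree, and its MEF arrays spread from 11.23 to 12.45.

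The type VI collagens, which form beaded filaments, rose together: Col6a3 by 2.16 ± 0.11, Col6a1 by 1.82 ± 0.10 and Col6a2 by 1.49 ± 0.09. All 6 adhesive glycoproteins rose, Thbs3 (0.63 ± 0.07) and Fn1 (0.65 ± 0.08) least. Elastin, Eln, rose by 1.27 ± 0.08 and Loxl1, a second lysyl oxidase, by 1.10 ± 0.11. The falls were led by Col26a1, which ran from 6.28 to 6.57 in MEF and read 9.36, 8.67, 8.99 and 9.28 in SGM (-2.66 ± 0.13). Mfap2 ran from 8.89 to 9.60 with a median of 9.23 in MEF, and from 10.47 to 11.08 in SGM (-1.55 ± 0.14). Col18a1 fell by 1.29 ± 0.12, and 3 of its 4 other probe sets were called in the same direction. Col13a1, a transmembrane collagen, fell by 0.94 ± 0.09. The 16 members not called lay between -0.18 and 0.23, with Vcan the highest.

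Genes of collagen processing were higher in MEF in 10 of 15 and lower in 3, led by P4ha1, a subunit of prolyl hydroxylase (2.32 ± 0.16), and Tll1, a procollagen protease (1.56 ± 0.14). Matrix receptors were higher in 12 of 21 and lower in 2, and glycosaminoglycan synthesis genes higher in 5 of 13 and lower in 1. Of 13 basement membrane genes 6 were higher and 3 lower. Fibroblast markers were higher in 12 of 20 and lower in 2, with S100a4 at 4.96 ± 0.12, and gonad and mesonephros markers lower in 7 of 12, with Wt1 at -3.25 ± 0.12. MEF were cultured and SGM were not, and their embryonic days differed, so culture, age and cell type cannot be told apart.

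**Figure D2:**
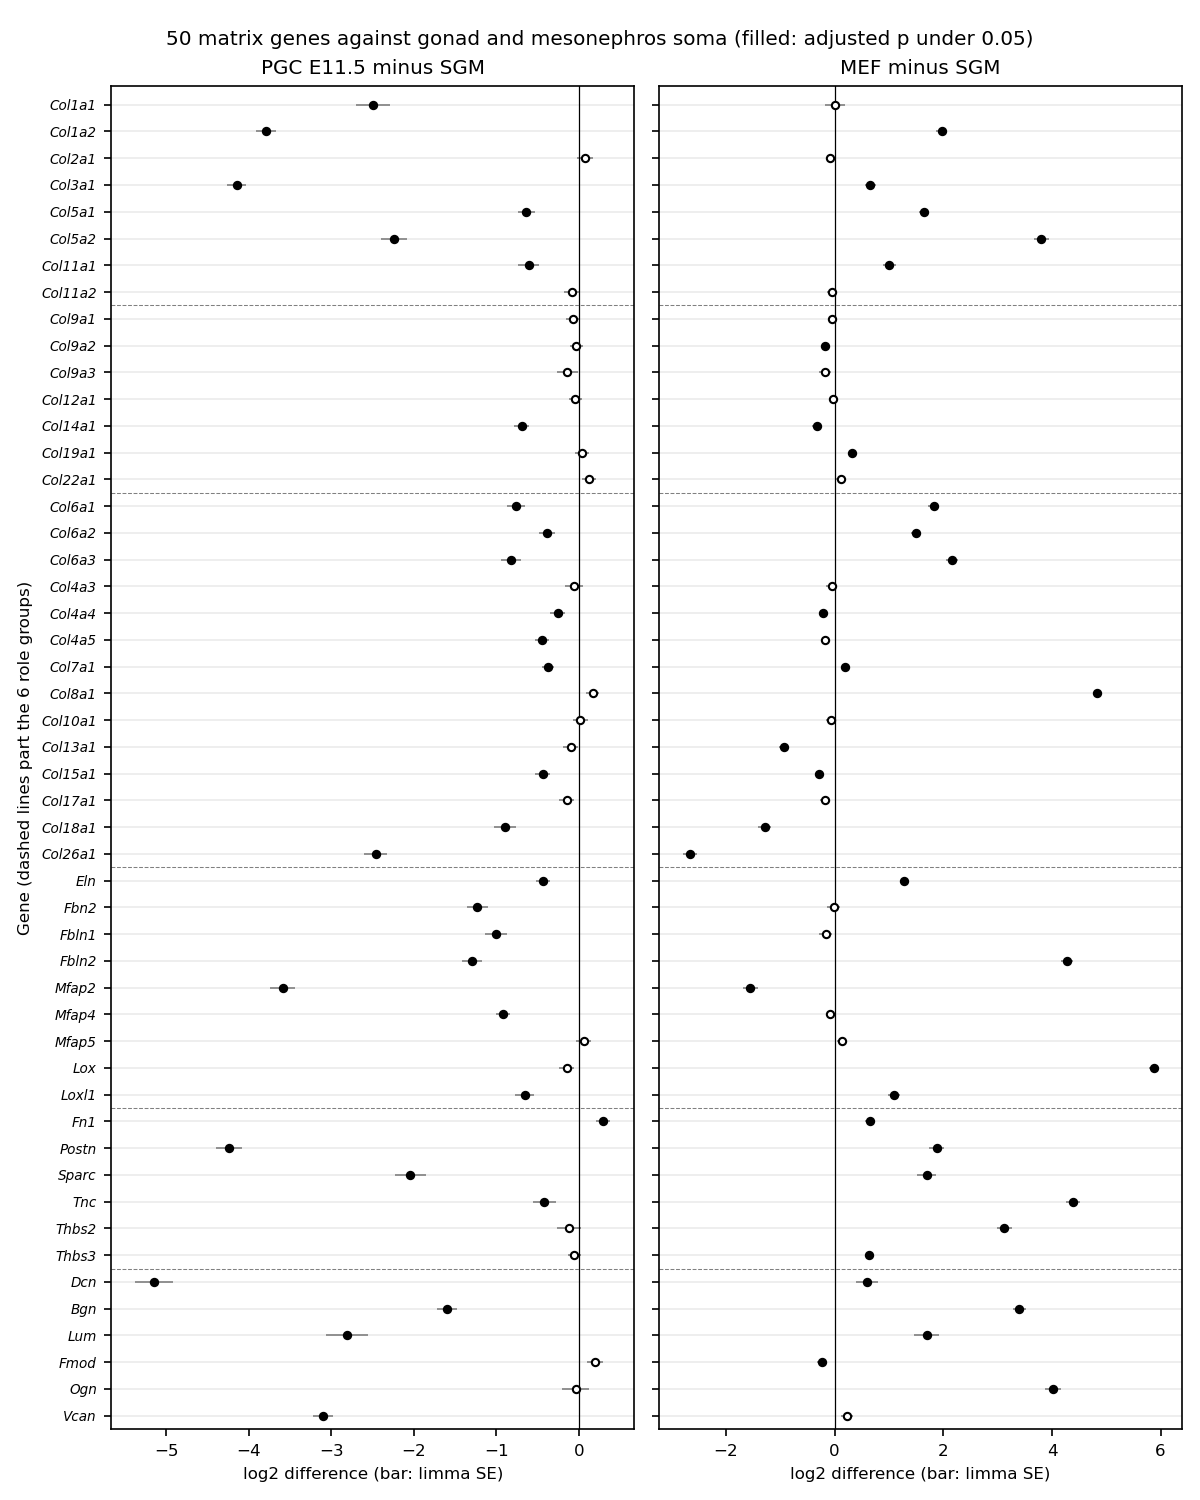
Points give the log2 difference of each matrix gene from SGM with its SE, for PGC E11.5 on the left and MEF on the right, and filled points are called at an adjusted p under 0.05. Germ cells lie left of 0 for 30 called genes, whereas MEF lie right of 0 for 25 and left for 9, with Lox at 5.87 and Col26a1 at -2.66 as the extremes of MEF.

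The plot of signal by group shows shapes that overlap. In the 6 pluripotent groups Col1a2, Col3a1 and Dcn were lower than in MEF and SGM, and the pluripotent means of Col3a1 ran from 9.14 in ICM to 9.96 in EGC. Lox, Tnc and Fbln2 had their highest level in MEF, as did Col1a2, Col3a1 and Dcn. For Lox and Tnc the SGM mean lay within the range of the pluripotent means, while Fbln2 averaged 11.98 in SGM, above all of them. Tnc, a matrix protein of neural progenitor niches, was second highest in NSC, at 11.26 and 10.79. Mfap2 and Col26a1 peaked in SGM, and Col26a1 came next in NSC, at 8.18 and 7.41. For Col26a1 the 2 NSC arrays both lay above all 18 pluripotent arrays, the highest of which was 7.06.

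**Figure D3:**
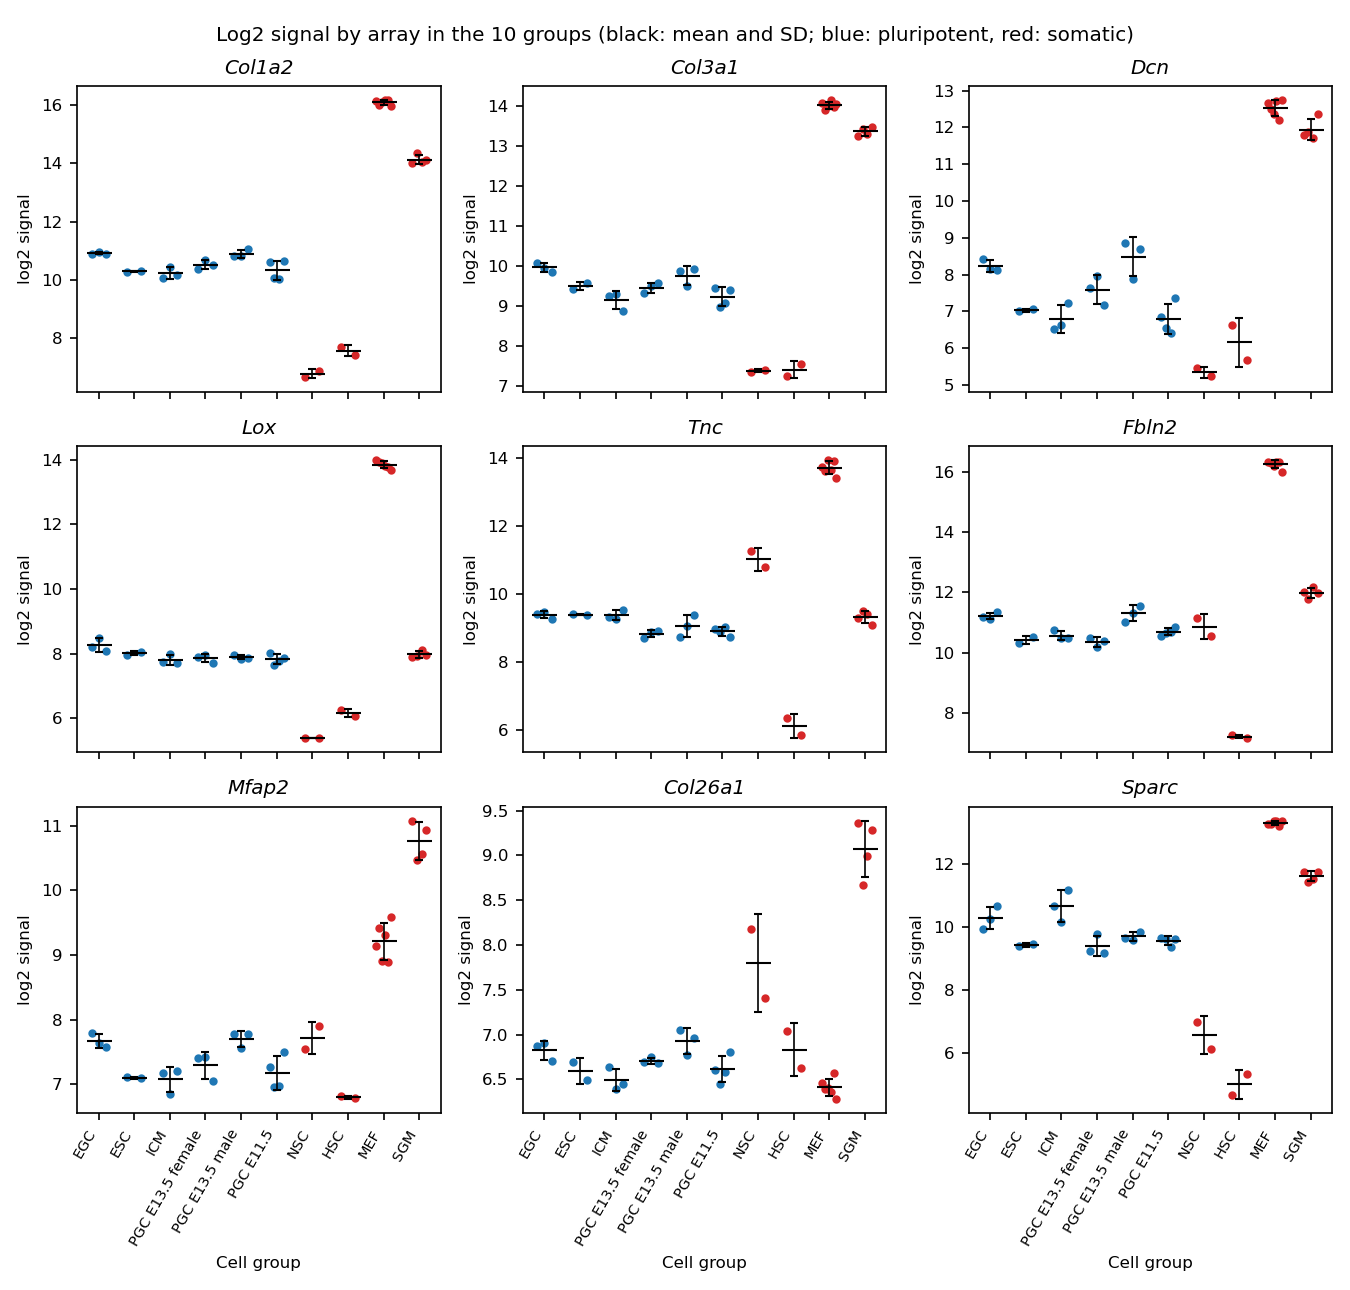
Each point is an array, with pluripotent groups in blue and somatic groups in red, and black marks give the group mean and SD of the log2 signal. Lox is near 8 in pluripotent cells and SGM and between 13.69 and 13.98 in MEF, while Mfap2 and Col26a1 have their highest values in SGM.

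The comparison of all pluripotent with all somatic groups, which weights each group equally, mixes these shapes. It called 31 members lower and 7 higher, where 63.9% of all genes were called, 34.9% lower and 29.1% higher. In none of the 50 did the 18 pluripotent and 14 somatic arrays separate, beside 1.73% of all genes that did so. The largest averaged falls were those of Postn (-1.79 ± 0.08), Lum (-1.57 ± 0.14), Dcn (-1.50 ± 0.12), Mfap2 (-1.29 ± 0.08) and Col8a1 (-1.10 ± 0.04). The rises included Fn1 (0.83 ± 0.05) and Sparc (0.72 ± 0.10), and both turned without the NSC and HSC arrays (Fn1 -0.15, Sparc -2.61). Without the MEF arrays 18 members were higher and 14 lower, and Lox (1.44), Col5a2 (1.17) and Col1a2 (1.04) turned to higher in pluripotent groups. Without NSC and HSC 36 members were lower and 4 higher, with Col1a2 at -4.58. The direction of this average thus depends on which somatic cells enter it.

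Set against MEF alone, the cultured lines ESC and EGC were lower in 32 members and higher in 7, where 65.6% of all genes were called, 29.8% lower and 35.7% higher. In 32 of the called members the arrays did not overlap, beside 42.2% of all genes. The falls of Lox (-5.71 ± 0.08) and Postn (-5.61 ± 0.13) were -4.99 and -5.17 after quantile normalization, and that of Lox was -3.59 as a mean over its probe sets. Col5a2 (-5.93 ± 0.13), Col1a2 (-5.49 ± 0.10) and Fbln2 (-5.44 ± 0.10) have MEF values above 16, so the order among these 5 genes is not settled. Quantile normalization left Col5a2 at -3.83, Col1a2 at -3.66 and Fbln2 at -3.52, and Col1a2 was -2.76 as a mean over probe sets. No line array overlapped a MEF array in these genes. Of the 6 proteoglycans 5 fell, with Dcn at -4.90 ± 0.20 and Bgn at -4.79 ± 0.11, and all 6 adhesive glycoproteins fell. Bgn was -2.65 after quantile normalization, -3.14 as a mean over probe sets and -4.18 with values above 16 set to 16. The rises were small: Fmod 0.71 ± 0.09, Col18a1 0.64 ± 0.11, Col22a1 0.39 ± 0.08, Col26a1 0.30 ± 0.12, Col9a2 0.26 ± 0.07, Col2a1 0.22 ± 0.08 and Col17a1 0.20 ± 0.08. Col26a1, Col2a1 and Col17a1 lost their call with arrays centred on their medians (adjusted p = 0.0783, 0.0925 and 0.0852), after quantile normalization, and without ESC replicate 1 among other single arrays. For Fmod the second probe set was lower (-0.86), so the direction of this gene is unsettled. The same holds for Fbln1, lower on its brightest probe set (-0.72) and called higher on another. The 11 members not called lay between -0.13 and 0.11. Of 15 collagen processing genes 12 were lower and none was higher, also at an unadjusted p under 0.05. The actin 3' minus 5' difference was 1.72 to 1.99 in EGC and 1.37 to 1.75 in ESC, against 0.16 to 0.79 in MEF, and its part was not tested.

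In the adult somatic cells most matrix genes were lower than in SGM and MEF, beside the array difference given above. NSC were lower in 36 members and higher in 6, where 65.1% of all genes were called, 31.6% lower and 33.5% higher. HSC were lower in 35 and higher in 5, where 69.3% were called, 29.7% lower and 39.6% higher. The arrays of 37 called members did not overlap in NSC, beside 49.4% of all genes, and those of 36 in HSC, beside 52.7%. In 18 members (36%) both NSC and HSC lay below all 8 other groups, beside 7.2% of all genes. Col1a2 read 6.66 and 6.88 in NSC and 7.70 and 7.42 in HSC, below the lowest pluripotent array at 10.02. Sparc averaged 6.57 ± 0.60 in NSC and 5.02 ± 0.46 in HSC (SD, n = 2 each), where no pluripotent array was below 9.16. Fbln2 parted the 2 cell types: it read 11.15 and 10.56 in NSC, within the range of the pluripotent arrays, and 7.26 and 7.17 in HSC.

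NSC stood above the pluripotent arrays in Tnc, but overlapped their range in Vcan and Col9a3. Tnc averaged 11.02 ± 0.33 in NSC (SD, n = 2), above all 18 pluripotent arrays, the highest of which was 9.54. Vcan averaged 9.65 ± 0.22 in NSC, below all EGC arrays, and 7.18 ± 0.14 in HSC. Col9a3, a chain of the type IX collagen that coats cartilage fibrils, rose by 0.95 ± 0.14 over SGM and MEF, but its 2 NSC arrays read 8.68 and 9.76 and its other probe set was not called (-0.20 ± 0.11). Fbn2, fibrillin 2, averaged 6.52 ± 0.13 in NSC, 6.61 ± 0.24 in MEF and 6.62 ± 0.25 in SGM, and its difference was not called (-0.10 ± 0.14). Of 15 collagen processing genes 8 were lower and 2 higher in NSC, and 7 were lower and 2 higher in HSC, while basement membrane genes were lower in 10 and 11 of 13.

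Within the pluripotent groups differences were fewer and smaller. ESC over ICM called 7 members higher and 4 lower, where 27.8% of all genes were called, 15.3% higher and 12.6% lower, so the 22.0% of members called is not above the background. The arrays of these 11 did not overlap, beside 26.7% of all genes. Col18a1, the multiplexin collagen of basement membrane zones, read 10.63 and 10.58 in ESC, against 8.99, 8.69 and 9.15 in ICM (1.66 ± 0.17, adjusted p = 2.07e-08). Of its other probe sets 3 were also called higher (4.03 ± 0.25, 2.54 ± 0.18 and 0.72 ± 0.13). ICM stood below the other 5 pluripotent groups for this gene, as none of their arrays was below 10.24. Thbs3, a thrombospondin of skeletal tissue, read 7.36 and 7.30 in ESC and 6.55, 6.28 and 6.63 in ICM (0.84 ± 0.10). The other rises were Col17a1 (0.60), Fmod (0.57), Col4a5 (0.56), Mfap4 (0.41) and Col7a1 (0.40).

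The falls in ESC were led by Sparc, which read 9.39 and 9.48 in ESC and 10.66, 10.15 and 11.18 in ICM (-1.24 ± 0.24, adjusted p = 3.72e-04). Col5a2 fell by 0.79 ± 0.20, Col13a1 by 0.60 ± 0.12 and Fbln1 by 0.50 ± 0.17. Other probe sets of Fbln1 (0.0275) and Mfap4 (-0.012) gave no call. When ESC and ICM were fitted alone, 3 members were called instead of 11, which are Col18a1, Thbs3 and Sparc. Of the basement membrane genes 6 of 13 were lower in ESC and 2 higher, with Col4a1 at -2.35 ± 0.33, Nid1 at -1.67 ± 0.21 and Nid2 at 2.12 ± 0.41. Primitive endoderm markers were lower in 3 of 13, with Dab2 at -3.10 ± 0.44, and their mean was 7.10 to 7.24 on ESC arrays against 7.37 to 7.55 on ICM arrays. The part of primitive endoderm cells in the Sparc difference was not tested. ESC and ICM also differ in strain and in culture.

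Relative to ESC, matrix genes of EGC were more often higher than lower. Of the 50 members 18 were higher and 5 lower, where 39.4% of all genes were called, 20.8% higher and 18.6% lower. None of the 23 had overlapping arrays, beside 39.0% of all genes called without overlap, and the median difference was 0.21 against 0.04 over all genes. Vcan read 10.48, 10.54 and 10.58 in EGC, against 9.23 and 9.57 in ESC (1.13 ± 0.16, adjusted p = 2.78e-06). Dcn read 8.43, 8.15 and 8.11 in EGC and 7.01 and 7.07 in ESC (1.19 ± 0.29). Col5a2 read 11.08, 11.61 and 11.17 in EGC and 10.10 and 10.41 in ESC (1.03 ± 0.20). For these genes all EGC arrays lay above both ESC arrays. Sparc (0.86 ± 0.24), Fbln2 (0.79 ± 0.16), Col1a2 (0.63 ± 0.16) and Mfap2 (0.57 ± 0.20) also rose, and Col15a1 (-0.70 ± 0.12), Col22a1 (-0.63 ± 0.12), Col14a1 (-0.34), Mfap4 (-0.33) and Col7a1 (-0.26) fell.

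The count in EGC over ESC rests on few arrays: it was 12 without ESC replicate 1, 14 without ESC replicate 2 and 15 without EGC replicate 2, and 8 of the 23 called members kept their call under all alternatives, among them Vcan, Dcn, Col5a2, Fbln2, Col1a2, Col15a1 and Col22a1. Sparc, Mfap2, Col14a1, Mfap4 and Col7a1 lost it without ESC replicate 1. Matrix receptors were higher in 9 of 21 and lower in none, also at an unadjusted p under 0.05, with Sdc4 at 1.67 ± 0.42 and Itga4 at 0.70 ± 0.15. Fibroblast markers were higher in 4 of 20 and lower in 2, beside 20.8% higher and 18.6% lower of all genes. The share of higher markers is thus near the background. They were led by the smooth muscle actin gene Acta2 (3.49 ± 0.27) and by Tagln (1.77 ± 0.16). The mean of all fibroblast markers was 7.34 to 7.45 on EGC arrays against 7.04 to 7.08 on ESC arrays. The 18S control was 14.23 to 14.56 on EGC arrays, against 10.20 to 10.89 on ESC arrays. The part of fibroblast-like cells and of RNA quality in these rises was not tested. Of the 8 members over 3 log2 units higher in MEF than in SGM, Lox (0.25), Col8a1 (-0.16), Ogn (0.07) and Tnc on its brightest probe set were not called between EGC and ESC, and the other Tnc probe set was (0.68 ± 0.18). Fbln2, Col5a2, Thbs2 (0.51) and Bgn (0.42) were called higher in EGC, but Thbs2 (0.20) and Bgn (0.24) not without ESC replicate 1.

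Between EGC and the male germ cells of E13.5, 7 members were higher and 5 lower, where 30.7% of all genes were called, 14.8% higher and 15.9% lower. The 24.0% of members called is thus not above the background. The arrays of all 12 did not overlap, beside 30.0% of all genes. After quantile normalization 6 were higher and 8 lower. Vcan averaged 10.54 ± 0.05 in EGC and 9.33 ± 0.05 in PGC E13.5 male (SD, n = 3 each; 1.21 ± 0.14, adjusted p = 1.52e-07). Thbs3 averaged 7.42 ± 0.04 in EGC and 6.71 ± 0.03 in PGC E13.5 male (0.71 ± 0.09). Col5a2 (0.82 ± 0.18) and Postn (0.68 ± 0.18) rose too. Col9a3 read 8.06, 8.11 and 8.21 in EGC and 9.27, 9.24 and 9.34 in PGC E13.5 male (-1.16 ± 0.15, adjusted p = 5.35e-07). Col13a1 (-0.66 ± 0.11) and Col15a1 (-0.63 ± 0.11) fell. Acta2 was higher in EGC here as well (4.17 ± 0.24). The actin 3' minus 5' difference was 1.72 to 1.99 in EGC, against 0.21 to 0.51 in PGC E13.5 male.

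From E11.5 to E13.5 the 2 sexes were followed against the same mixed PGC E11.5 arrays. In males 21 members were higher and none lower at E13.5, where 52.4% of all genes were called, 31.7% higher and 20.7% lower. The median difference was 0.23, against 0.15 over all genes. The arrays of all 21 did not overlap, beside 46.3% of all genes. At an unadjusted p under 0.05 limma gave 23 higher and 0 lower. Dcn read 8.87, 7.89 and 8.70 in PGC E13.5 male, against 6.85, 6.54, 6.42 and 7.35 in PGC E11.5 (1.70 ± 0.25, adjusted p = 6.15e-06). Col9a3 rose by 1.07 ± 0.14, and Fbln2, a fibulin of basement membranes and elastic fibres, by 0.61 ± 0.13. Elastic fibre genes rose in 6 of 9 and the network and other collagens in 8 of 14, each by 0.25 to 0.61, and Col1a2 (0.56 ± 0.13) and Col3a1 (0.54 ± 0.12) rose among fibrillar collagens. None of the 6 adhesive glycoproteins was called, also at an unadjusted p under 0.05.

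Cell type lists differed in how often they rose, beside 31.7% of all genes called higher. Of 12 endothelial genes 10 were higher, as were 6 of 12 gonad and mesonephros genes. None of either list was lower, also at an unadjusted p under 0.05. Of 20 fibroblast markers 5 were higher and 1 lower, and of 12 macrophage genes 4 were higher and none lower. Primitive endoderm markers were higher in 7 of 13 and lower in 1. The mean of the endothelial list was 7.12 to 7.19 on PGC E13.5 male arrays, against 6.70 to 6.96 on PGC E11.5 arrays, and every PGC E13.5 male array lay above every PGC E11.5 array for the gonad list too. Col4a1, a basement membrane collagen, was higher by 2.17 ± 0.28. The actin 3' minus 5' difference was 0.21 to 0.51 in PGC E13.5 male, against 0.81 to 1.09 in PGC E11.5, and the 18S control 14.82 to 15.42 against 12.36 to 13.48, both without overlap. The part of RNA quality and of somatic cells carried over by the sort was not tested.

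In females 5 members were higher and 1 lower at E13.5, where 31.5% of all genes were called, 16.3% higher and 15.2% lower. The split was 7 to 0 after quantile normalization and 5 to 2 with arrays centred on their medians. Fbln1, a fibulin found in elastic fibres and basement membranes, read 9.41, 9.37 and 9.23 in PGC E13.5 female, against 8.33, 8.53, 8.41 and 8.91 in PGC E11.5 (0.79 ± 0.14, adjusted p = 1.11e-04). Its other 3 probe sets were called higher too, by 0.38 to 0.61. Dcn (0.80 ± 0.25) and Col18a1 (0.50 ± 0.14) rose with overlapping arrays, the other 4 without, beside 24.7% of all genes, Col6a1 (0.39) and Col7a1 (0.26) rose, and Fn1 fell by 0.33 ± 0.10. With array weights 15 members were called instead of 6. Of the 6 only Fbln1 kept its call under all alternatives. Without 1 array Dcn (0.62, without PGC E13.5 female replicate 2; 0.68, without PGC E11.5 replicate 3), Col18a1 (0.41) and Col6a1 (0.37, both without PGC E13.5 female replicate 1) and Col7a1 (0.20, without PGC E13.5 female replicate 2) lost it, and Fn1 lost it after quantile normalization (-0.20, adjusted p = 0.137). Of 12 endothelial genes 6 were higher and none lower, also at an unadjusted p under 0.05, and their mean was 6.97 to 7.22 on PGC E13.5 female arrays against 6.70 to 6.96 on PGC E11.5 arrays. Other lists rose less often: 2 of 12 gonad and mesonephros genes, 1 of 20 fibroblast markers and 0 of 12 macrophage genes were higher. None of these 3 lists held a lower gene, and 16.3% of all genes were higher. The 18S control was 14.26 to 14.94 in PGC E13.5 female, against 12.36 to 13.48 in PGC E11.5. The part of endothelial or other somatic cells and of RNA quality in the rises was not tested.

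Set directly against each other, the sexes at E13.5 differed in 4 members, where 8.62% of all genes were called, 6.29% higher and 2.33% lower in females. The 8.00% of members called is thus near the background. In 3 of the 4 the arrays did not overlap, beside 8.39% of all genes. Fbln1 was higher in females, averaging 9.34 ± 0.10 there, against 8.44 ± 0.16 in male PGC (SD, n = 3 each; 0.90 ± 0.15, adjusted p = 2.59e-04). One further probe set of Fbln1 was called in the same direction (0.47 ± 0.10). Col9a3 read 8.31, 8.28 and 8.29 in females and 9.27, 9.24 and 9.34 in males (-0.99 ± 0.15, adjusted p = 4.16e-05). Its second probe set gave -0.30 ± 0.11 and was not called. Fbln2 read 10.48, 10.18 and 10.40 in females and 11.03, 11.32 and 11.56 in males (-0.95 ± 0.14, adjusted p = 4.05e-05). Females thus stood lower in Col9a3 and Fbln2 on all 3 arrays each. Dcn was lower as well (-0.89 ± 0.26), but its arrays overlapped, and it was not called when the 2 groups were fitted alone (adjusted p = 0.118), the adjusted p of Dcn over all alternatives running from 0.00691 to 0.224. After quantile normalization 1 member was higher and 6 lower in females. The actin 3' minus 5' difference was 0.67 to 1.25 in PGC E13.5 female, against 0.21 to 0.51 in PGC E13.5 male.

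**Figure D4:**
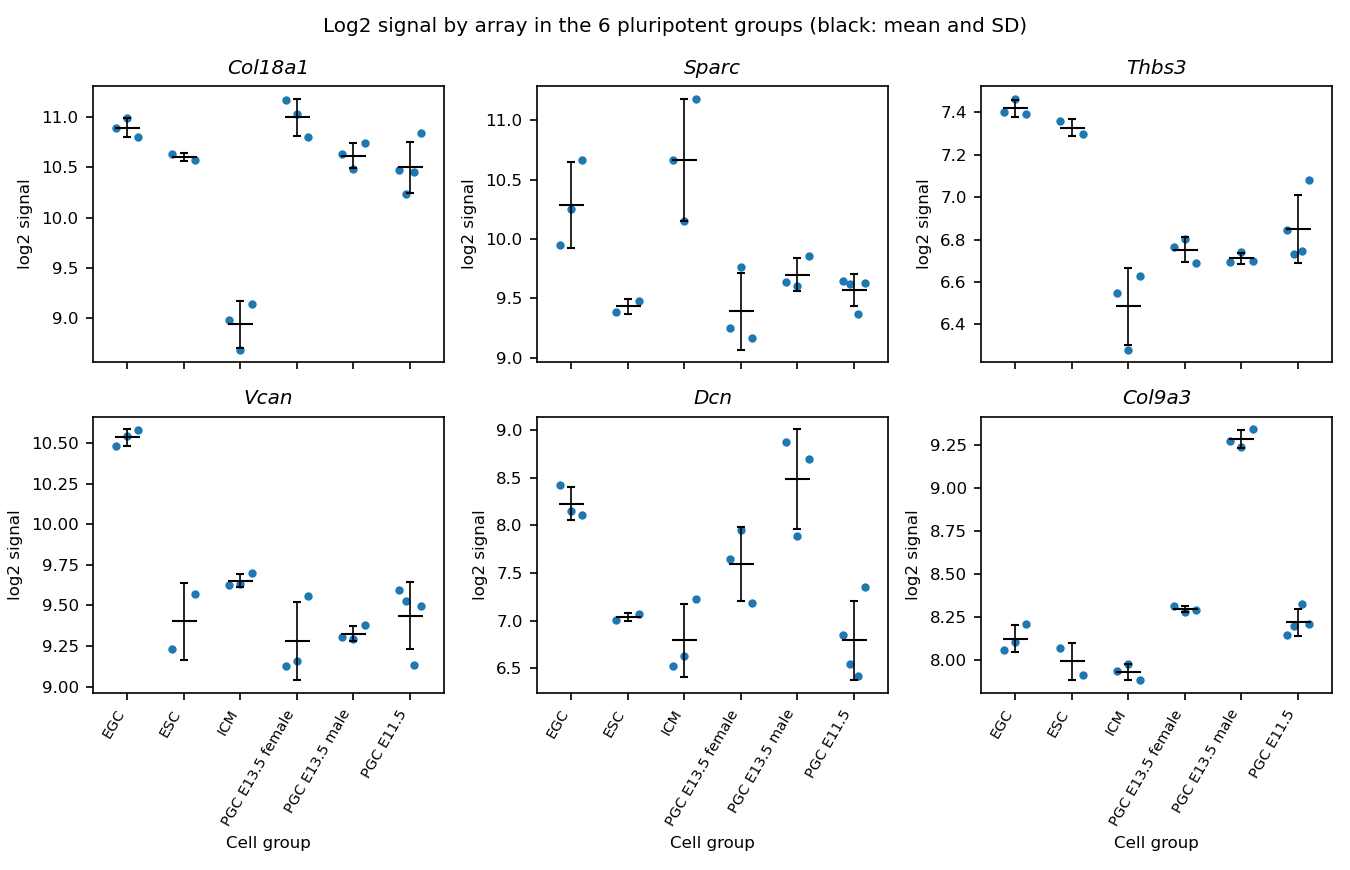
Each point is an array of a pluripotent group, with black marks for the group mean and SD of the log2 signal, and the axes differ between genes and do not start at 0. Col18a1 is lowest in ICM, Vcan highest in EGC and Col9a3 highest in PGC E13.5 male, between 9.24 and 9.34.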

How the data were processed

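The authors deposited 1 table of log2 values made by RMA, per the submitters' processing notes, which name no version. RNA went through 2 rounds of in vitro transcription and biotin labelling before hybridisation, per the labels' protocols. Of 34 columns 2 equalled the mean of other columns of their group within 1e-06 and were not used, so 32 arrays from 10 groups entered. The table holds 12488 probe sets, of which 66 are controls, 10833 have 1 gene symbol, 396 have several and 1193 have none. Symbols of 10817 were updated by gene ID, and each of the 8251 genes was read from its probe set with the highest mean over all arrays. The number of arrays limits the precision.

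All 10 groups entered 1 limma fit (limma 3.58.1, R 4.3.3) with eBayes, 22 residual degrees of freedom and Benjamini-Hochberg adjustment over 8251 genes, two-sided. The fit was tested on simulated data. Each comparison weights its groups equally. Members, gene lists and tests were chosen with earlier results of these data known. Any member could be named, as the rule of names chose it. Values of every array were planned for called members without overlap, up to the 10 largest rises and 10 largest falls per comparison. Of other lists up to 4 called genes were named per comparison. Same-numbered replicates of different groups were not taken as pairs: correlations of their deviations ran from -0.566 to 0.521 over 45 pairs of groups. Alternatives were fits of the compared groups only, all 34 columns, median centring, quantile normalization, array weights, trend and robust settings, a filter on low signal, other probe set rules, a replicate block, no NSC and HSC arrays and each array left out. Fits without MEF arrays and with values above 16 set to 16 were chosen after seeing the data.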

Additional observations from a re-analysis of the deposited data

Results flagged for a closer look

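In 11 of 150 groups of 4 to 6 arrays, each tested gene by gene, 1 array lay apart from the rest by Dixon's criterion, which chance meets in about 1 in 20 groups. Col5a2 read 16.43 in MEF replicate 6, against 16.72 to 16.79 on the other MEF arrays. In MEF replicate 4 Col6a2 read 9.50 against 9.13 to 9.27, and Thbs3 read 7.73 against 7.46 to 7.55. In MEF replicate 1 the proteoglycan Lum read 11.74 against 10.27 to 10.74, and Vcan 13.18 against 12.58 to 12.77. Fn1 read 9.70 in SGM replicate 2, against 9.48 to 9.50 on the other SGM arrays.

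Among germ cells of E11.5, replicate 4 stood high in Col9a1 (8.77 against 8.65 to 8.67) and in Mfap5 (6.95 against 6.62 to 6.67). Replicate 1 stood high in the transmembrane collagen Col13a1 (8.38 against 7.88 to 7.93) and in Lum (6.31 against 6.14 to 6.15). Sparc read 9.37 in replicate 3, against 9.62 to 9.65 on the other PGC E11.5 arrays.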

How the results depend on the processing

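Counts of called members stayed within 1.5 times of those reported, with these exceptions. For ESC over ICM the 11 calls became 3 with the compared groups alone and 7 with plain probe sets. For PGC E13.5 female over PGC E11.5 the 6 calls became 15 with array weights, and for female over male PGC the 4 calls became 9 with array weights and 7 after quantile normalization. Leaving out 1 array gave 12 to 21 calls for EGC over ESC, against 23 with all. With the replicate block the counts were 36 for pluripotent over somatic, 31 for PGC E11.5 over SGM, 33 for MEF over SGM, 12 for ESC over ICM and 8 for PGC E13.5 female over PGC E11.5, and no count moved by over 1.5 times. Of the single genes, 6857 repeats kept direction and call, 38 changed sign and the rest kept direction but lost the call.

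Pluripotent over somatic turned without MEF arrays for Col1a2 (1.04), Col3a1 (0.12), Col5a1 (0.33), Col5a2 (1.17), Col6a1 (0.60), Col6a2 (0.21), Col8a1 (0.0484), Eln (0.0591), Fbln2 (0.74), Lox (1.44), Loxl1 (0.0515), Tnc (0.34), Thbs2 (0.54) and Ogn (0.25). Without NSC and HSC arrays it turned for Col11a2 (0.0221), Col19a1 (-0.12), Col4a4 (-0.0883), Col18a1 (-0.33), Fn1 (-0.15) and Sparc (-2.61), and after quantile normalization for Col5a2 (0.0034). Quantile normalization turned MEF over SGM for Col1a2 (-0.13) and Col3a1 (-0.18).

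The choice of probe set turned Fmod, as a mean over probe sets and on the plain one, for pluripotent over somatic (-0.10 and -0.45), MEF over SGM (0.0017 and 0.25), ESC and EGC over MEF (-0.0733 and -0.86) and NSC over SGM and MEF (-0.10 and -0.79). On plain probe sets Fbln1 turned for ESC and EGC over MEF (0.11) and ESC over ICM (0.0275). Mfap4 turned for PGC E11.5 over SGM (0.0457), ESC over ICM (-0.012), EGC over ESC (0.12), EGC over PGC E13.5 male (0.0039) and NSC over SGM and MEF (0.0875). Fmod aside, another probe set was called opposite for Fbln1 in pluripotent over somatic, ESC and EGC over MEF and EGC over PGC E13.5 male. The same held for Col18a1 in NSC over SGM and MEF and for Eln in HSC over SGM and MEF. The cause of these turns and opposite calls was not tested.

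Median centring moved the median of all genes by -0.13 for HSC over SGM and MEF, and by under 0.1 in the other comparisons. Groups of 2 arrays, values above 16 in MEF and the absence of detection calls limit these results.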
